A study of Mus musculus with 20 samples.

Results

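The second week of tendon growth was followed in the plantaris tendons of control mice, by comparing 4 RNA sequencing libraries made at day 14 with 4 made at day 7. These 8 libraries, of 20 in the series, were chosen by their labels alone. All of them came from mice of the genotype ScxCreERT2-/- IGF1Rflox/flox that had received tamoxifen and a growth stimulus. These mice are named WT in the labels. They carry flox sites in both alleles of the IGF1 receptor gene but lack the tamoxifen-activated recombinase CreERT2, so tamoxifen had no recombinase to act on. Another 4 libraries, from mice of the same genotype without tamoxifen and without the stimulus, give the level at day 0. The same 2 days were sampled in mice labelled KO, of the genotype ScxCreERT2+/+ IGF1Rflox/flox, also with tamoxifen and the stimulus, in 4 libraries per day. In these the recombinase is placed at Scx, the gene of the transcription factor scleraxis, so it is meant to act in cells that express Scx. The labels give neither the age of the mice nor whether each library is 1 animal, so each p-value rests on how the libraries of a group differ, and that difference can be technical.

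Tendon is built mainly of type I collagen fibrils laid down by tenocytes, the resident fibroblasts. Scleraxis and Mohawk drive the tenocyte programme, and tenomodulin marks mature tenocytes. A tendon put under added load is known to grow by first filling with proliferating progenitors, macrophages and loosely organised matrix, and later by maturing that matrix. Small leucine-rich proteoglycans set how fibrils pack, lysyl oxidases crosslink them, and matrix metalloproteinases with their inhibitors turn them over. IGF1 is a growth factor that acts through its receptor on tenocytes and muscle fibres.

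Depth per library, in units of 1000000 counts, was 48.3 to 59.5 at day 7 and 39.6 to 55.8 at day 14. The tenocyte markers Tnmd, Thbs4, Fmod and Scx were read in all 8 libraries, as the tissue label requires. Replicates of a day were not alike in every respect. On principal components of the 8 libraries, the first (50.1% of the variance) separated the days, and the second (14.9%) set WT day 14 replicate 4 apart. The third held 10.2%. The 30 skeletal muscle fibre genes took 0.344%, 0.223%, 0.077% and 0.281% of counts in the day 7 libraries and 1.88%, 0.420%, 0.636% and 2.77% at day 14, in the order of the replicate numbers. Every day 14 library thus held more muscle RNA than any at day 7, and replicates 1 and 4 held the most. A score of these muscle genes was therefore tried as a covariate, and replicates 1 and 4 were left out together as an alternative chosen after seeing the data. Because the score did not overlap between the days, the covariate also takes up part of any true difference between them. In tissue RNA, fewer cells of a type and less RNA per cell cannot be told apart.

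**Figure D1:**
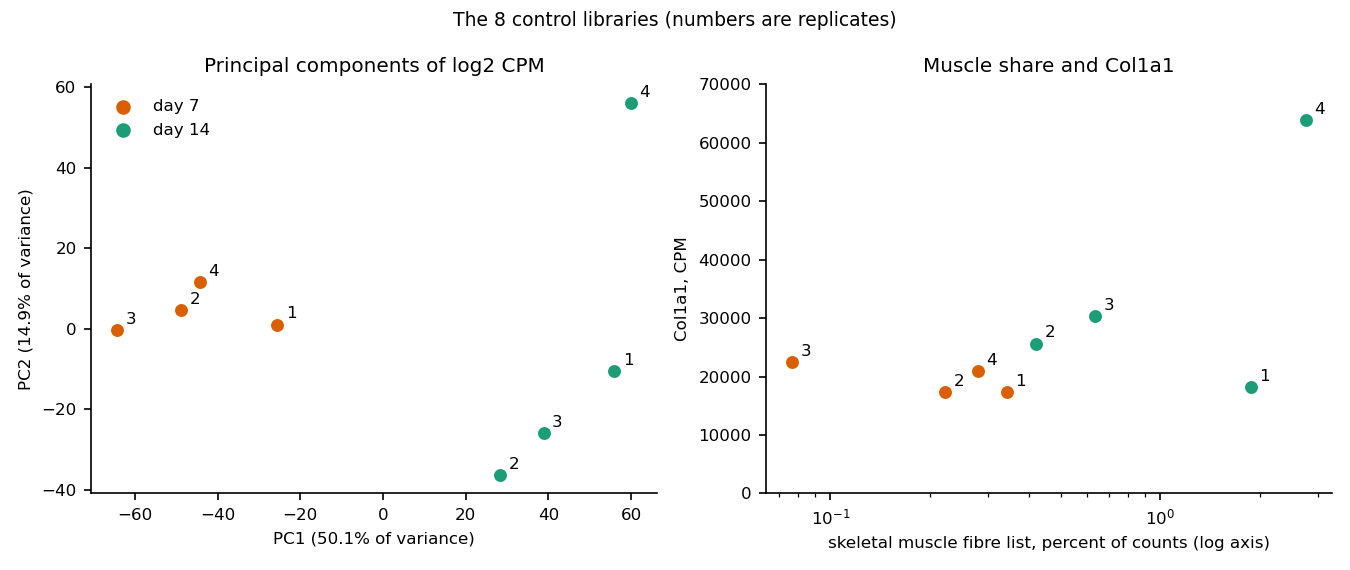
Left, the first 2 principal components of log2 CPM (counts per 1000000) for the 8 control libraries, numbered by replicate. Right, the share of counts from the 30 muscle fibre genes (percent, log axis) against the Col1a1 level (CPM, linear axis from 0). Day 14 replicate 4 sits alone on the second component, with a muscle share of 2.77%.

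From day 7 to day 14, 3031 of 18918 genes rose (16.0%) and 2714 fell (14.3%), at a Benjamini-Hochberg adjusted p below 0.05 in edgeR's quasi-likelihood test. Of these, 1019 rose and 815 fell at least 2-fold. Libraries of the 2 days did not overlap for 25.6% of the genes tested, and the median log2 fold change of all genes was 0.02. With the muscle score in the model 2970 genes passed, and without replicates 1 and 4 of day 14 the count was 4237. Genes were read in 51 lists of pathways and cell types. Their counts are to be read against the 16.0% and 14.3% of all genes, and a list near these shares does not stand out. Members that went against the direction of their list, and genes named in counts of 5 or fewer, were picked out after their values were seen. A count of 3 or fewer can move by more than 1.5 times when 1 library is left out, and for larger counts the library is named where it does. Fold changes are on the log2 scale with their standard error, and levels are CPM after TMM scaling, which do not allow for gene length.

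**Figure D2:**
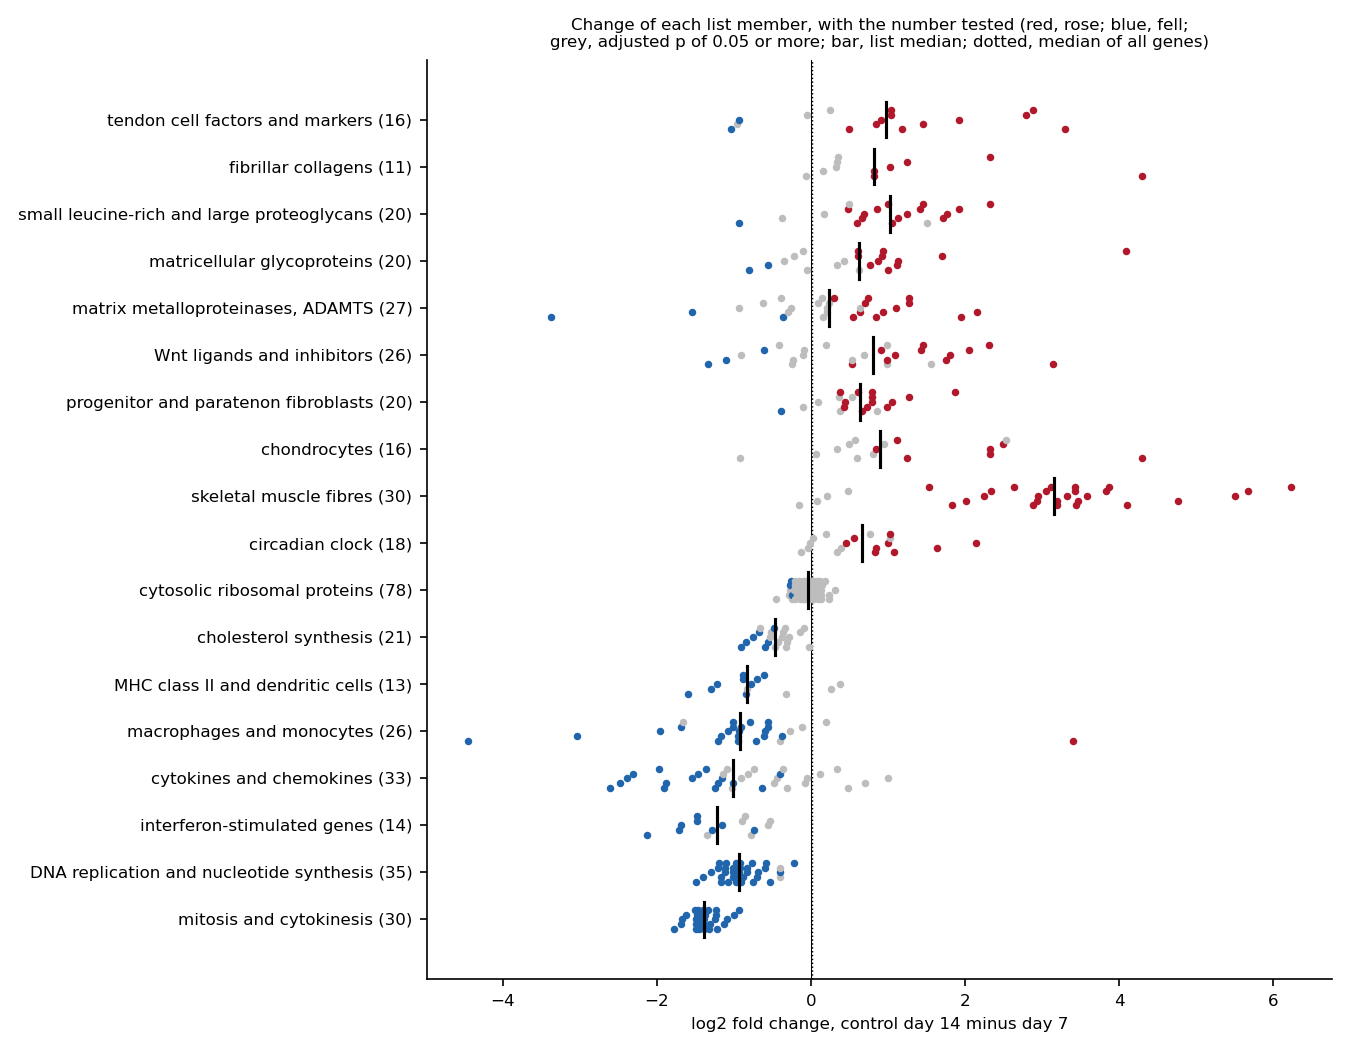
Each point is the log2 fold change, control day 14 minus day 7, of 1 member of the list named on the left, with the number of members tested in brackets. Colour marks members that rose or fell in edgeR's test, the bar is the list's median and the dotted line the median of all genes. Tendon, proteoglycan and muscle genes lie mostly to the right, and all 30 mitosis genes lie to the left.

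Genes that mark tenocytes rose in the second week. Of 16 such genes 11 rose and 2 fell, with a median log2 fold change of 0.97. Gene positions are those of the GENCODE annotation on the GRCm38 build. Tnmd (ENSMUSG00000031250, chrX:133850980-133865577, plus strand), the membrane glycoprotein tenomodulin, stood at 370.0, 154, 152 and 179.7 CPM in the day 7 libraries and at 1866, 1905, 1175 and 995 at day 14. No day 14 library came within 2-fold of a day 7 library, and replicate 1 was the highest of day 7. Its log2 fold change was 2.80 ± 0.29 (adjusted p = 4.88e-06), and the mean at day 0, 183 CPM, was near the day 7 level. Scx (ENSMUSG00000034161, chr15:76457452-76459458, plus strand) stood at 57.1, 52.8, 44.8 and 47.2 CPM and then at 121, 142, 125 and 70.3. The lowest day 14 value, in replicate 4, was still above all day 7 values, and Scx rose by 1.18 ± 0.27 (adjusted p = 0.00345). Mkx, the gene of Mohawk, went from 30.001, 21.8, 22.6 and 25.9 CPM to 49.8, 42.8, 37.7 and 57.8, without overlap, a rise of 0.91 ± 0.13 (adjusted p = 6.05e-05). Against day 0, Mkx at day 14 stood at -0.13 (adjusted p = 0.402).

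Matrix genes of tenocytes moved the same way. Thbs4, which encodes thrombospondin 4 and is abundant at the muscle-tendon junction, stood at 5102, 5638, 6142 and 7353 CPM at day 7 and 7258, 7713, 8783 and 10549 at day 14. The groups touched, since day 7 replicate 4 exceeded day 14 replicate 1, and the rise was 0.50 ± 0.13 (adjusted p = 0.00775). Cilp2, a cartilage intermediate layer protein, went from 55.1, 38.6, 57.1 and 70.04 to 303, 316, 439.6 and 569 CPM, a rise of 2.88 ± 0.36 (adjusted p = 2.47e-05). It stayed lower than at day 0 (mean 1000.2 CPM, log2 difference -1.30, adjusted p = 0.00376). Clec11a, a secreted lectin known as a bone growth factor, rose by 1.04 ± 0.14 (adjusted p = 3.94e-05). The members that fell were Prg4, the lubricant proteoglycan of gliding surfaces, at -0.93 (adjusted p = 0.0176), and Egr2, a transcription factor of tendon and of myelinating cells, at -1.03 ± 0.36 (adjusted p = 0.0383). The Egr2 call was lost without any of 6 single libraries, with adjusted p up to 0.0929 without day 14 replicate 4. The Prg4 call was lost without any 1 of 3 libraries (adjusted p up to 0.0642, without day 7 replicate 4).

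Collagen genes, already high at day 7, rose further in part. Of 11 fibrillar collagens 6 rose and none fell, with a median of 0.82. Against day 0, 9 were higher at day 14 and the median log2 difference was 2.13. Col1a1 (ENSMUSG00000001506, chr11:94936224-94953042, plus strand), the main chain of type I collagen, stood at 17348, 17362, 22448 and 20939 CPM at day 7 and at 18206, 25648, 30345 and 63886 at day 14. Replicate 1 of day 14 lay within the day 7 range and replicate 4 had over 2-fold the level of any other of the 8 libraries. The rise of 0.82 ± 0.25 (adjusted p = 0.0166) rested on that library: without it the value was 0.34 (adjusted p = 0.0925). Col1a2, the partner chain, stood at 20298, 19674, 24755 and 24691 and then at 25156, 33273, 39671 and 59402 CPM, with no overlap, and rose by 0.82 ± 0.19 (adjusted p = 0.00273; 0.55 and adjusted p = 0.00874 without replicate 4). Col3a1 (ENSMUSG00000026043, chr1:45311538-45349706, plus strand), the type III collagen of young and healing matrix, had 34214, 34211, 34485 and 37368 CPM at day 7, a narrow range, and 34869.7, 54687, 50446 and 39895 at day 14. Its change of 0.36 ± 0.13 did not pass (adjusted p = 0.0502), and it passed without replicate 4 (adjusted p = 0.033) or without replicate 1 of day 14 (adjusted p = 0.00947).

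Counts per kilobase of exon allow these chains to be set against each other. The ratio of Col3a1 to Col1a1 was 0.448 to 0.549 in the 4 libraries of day 0 and 1.03 to 1.32 at day 7. In the day 14 libraries it was 1.28, 1.43, 1.11 and 0.418, so 3 stayed at or near the day 7 range and replicate 4 was below all libraries of day 0. The minor fibrillar chains had the larger relative changes. Col2a1, the type II collagen of cartilage, stood at 4.62, 1.34, 1.45 and 1.48 CPM and then at 15.5, 30.3, 76.3 and 54.6, a rise of 4.29 ± 0.96 (adjusted p = 0.00324) from a low level. Col11a1 and Col11a2, which nucleate thin fibrils, rose by 1.24 ± 0.25 and 2.32 ± 0.58 (adjusted p = 0.000994 and 0.00651), and Col24a1 by 1.03 ± 0.20 (adjusted p = 0.000843). With the muscle score as covariate, 2 fibrillar collagens were called.

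**Figure D3:**
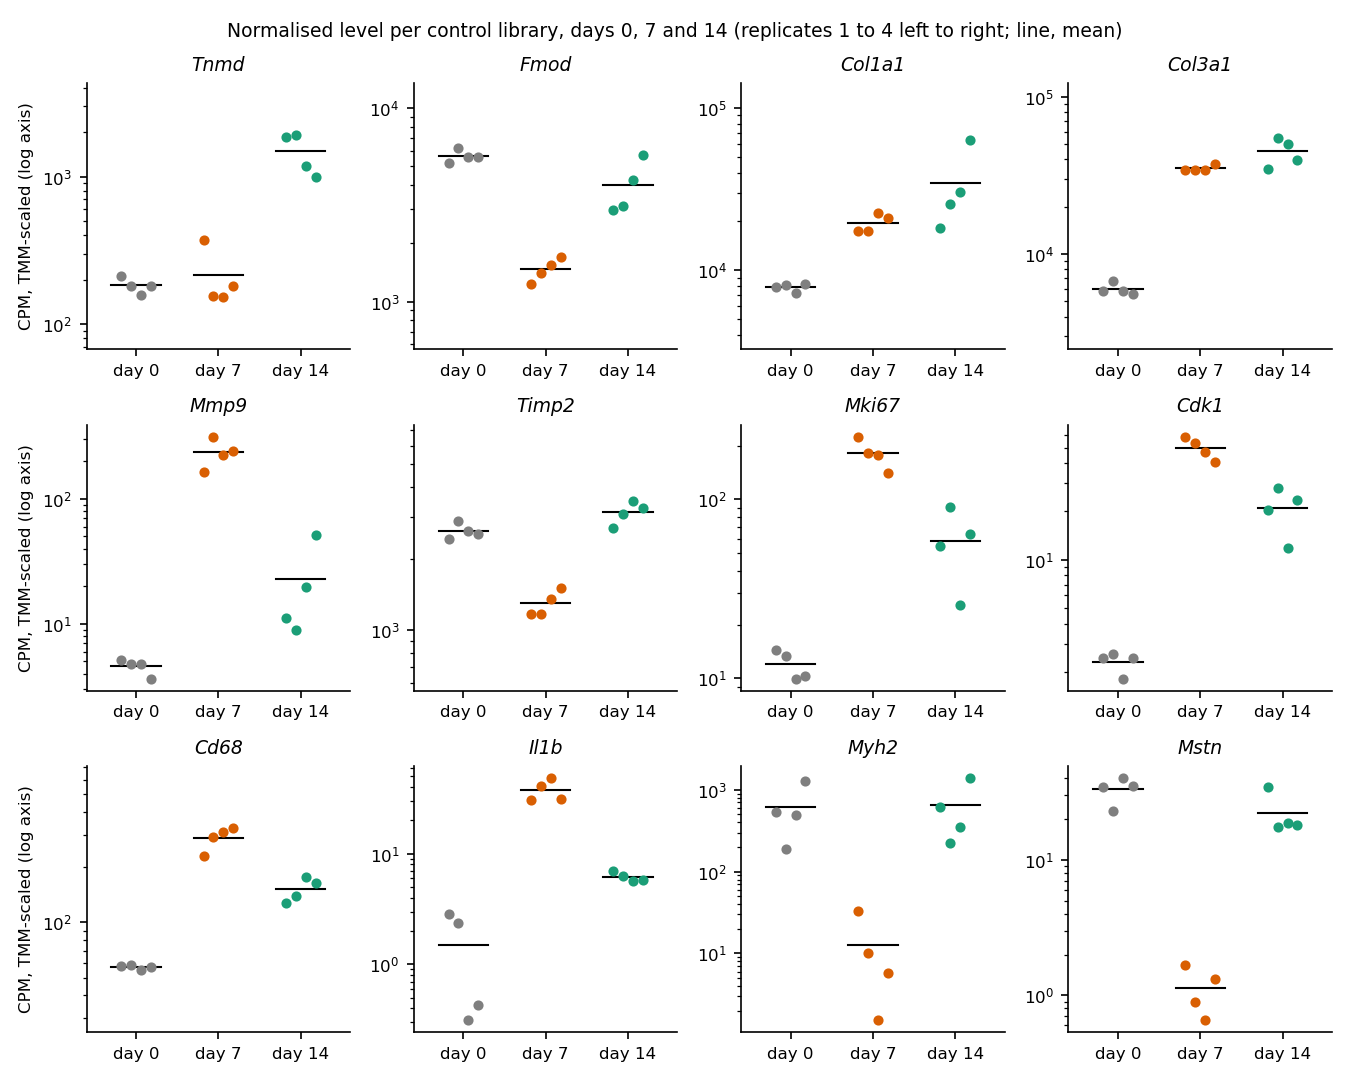
Level of 12 genes (CPM after TMM scaling, log axis) in each control library at days 0, 7 and 14, replicates 1 to 4 from left to right, with the mean as a line. Tnmd, Fmod, Timp2, Myh2 and Mstn are higher at day 14 than at day 7 in all libraries, and Mmp9, Mki67, Cdk1, Cd68 and Il1b are lower.

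Among 23 other collagens 11 rose and none fell, with a median of 0.73. Col22a1 is a collagen of the muscle-tendon junction. It stood at 6.51, 2.98, 0.636 and 3.38 CPM at day 7 and 31.6, 21.5, 30.4 and 124 at day 14, where replicate 4 was far above the rest, and it rose by 3.93 ± 0.68 (adjusted p = 0.000464). Col12a1, a fibril-surface collagen that links neighbouring fibrils, had 2377, 1909.8, 1568 and 1847 and then 2465, 3821, 2530.0 and 3054 CPM. These did not overlap, and the rise was 0.62 ± 0.18 (adjusted p = 0.0141), lost without day 14 replicate 2 (adjusted p = 0.0601). Col6a1, of the microfibrils around cells, rose by 0.71 ± 0.15 (adjusted p = 0.00122), Col8a2 by 0.94 ± 0.13 and Col15a1 by 1.28 ± 0.22 (adjusted p = 4.39e-05 and 0.000257). Col13a1, a membrane collagen, rose by 1.08 ± 0.15 (adjusted p = 5.2e-05), while Col14a1 stood at 0.41 ± 0.17 (adjusted p = 0.0837) and passed without day 14 replicate 1 (adjusted p = 0.0281).

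Most proteoglycans that space and bind collagen fibrils rose. Of 20 genes 15 rose and 1, Prg4, fell, with a median of 1.03. Fmod (ENSMUSG00000041559, chr1:134037254-134048277, plus strand), fibromodulin, which governs fibril thickness, stood at 1227, 1411, 1541 and 1694 CPM at day 7 and 2964, 3112, 4251 and 5736 at day 14. All day 14 values exceeded all day 7 values, the rise was 1.45 ± 0.18 (adjusted p = 1.24e-05), and the day 0 mean was 5649 CPM. Chad, chondroadherin, which binds collagen and cells, stood at 217, 199, 220.1 and 233 and then 1172, 969, 1346 and 852 CPM, a rise of 2.32 ± 0.37 (adjusted p = 0.000198). It remained far under its day 0 mean of 8633 CPM (log2 difference -2.99, adjusted p = 3.97e-06). Kera, keratocan, went from 162, 78.7, 91.3 and 104 to 493, 421, 313 and 423 CPM, a rise of 1.92 ± 0.23 (adjusted p = 1.63e-05).

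Decorin, biglycan and lumican all rose in the second week but did not stand alike against day 0. Dcn had 3941, 4163, 4450.4 and 4781 CPM at day 7 and 8463, 7303, 6436 and 5183 at day 14, a rise of 0.66 ± 0.15 (adjusted p = 0.00301), with a day 0 mean of 16754. Bgn had 5892, 5254, 5307 and 5524 and 6415, 8534, 9108 and 9296 CPM, a rise of 0.60 ± 0.12 (adjusted p = 0.000844), with 2111 at day 0. Lum had 1485, 1374, 1221 and 1385 and 3183, 3226, 2968 and 2009.7 CPM, a rise of 1.06 ± 0.15 (adjusted p = 3.79e-05), with 419 at day 0. Day 14 Dcn was thus lower than before growth (log2 difference -1.29, adjusted p = 1.04e-06), and Bgn and Lum were higher (1.98 and 2.76, adjusted p = 2.24e-10 and 5.72e-11). Ecm2, a related extracellular matrix protein, rose by 1.71 ± 0.21 (adjusted p = 1.66e-05).

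Elastic fibre genes did not move together. Of 17 genes 6 rose and 3 fell, with a median of -0.06. Genes of the family named latent TGF-beta binding proteins went opposite ways. Ltbp2 had 274, 412, 365 and 351 CPM at day 7 and 102, 106, 152 and 173 at day 14, with no overlap, and fell by 1.39 ± 0.24 (adjusted p = 0.000386). Ltbp4 had 98.8, 106, 128 and 129 and 282, 322, 394 and 520.4 CPM, again with no overlap, and rose by 1.72 ± 0.20 (adjusted p = 9.78e-06), as did Ltbp3 by 0.81 ± 0.11 (adjusted p = 4.4e-05). The other members that fell were Efemp1 (-0.67, adjusted p = 0.0184) and Emilin2 (-0.57, adjusted p = 0.0363). Mfap2, a microfibril protein, rose by 0.92 ± 0.17 (adjusted p = 0.000458). Eln, elastin, stood at -0.06 ± 0.23 (adjusted p = 0.884) and Fbn1, fibrillin 1, at -0.30 ± 0.12 (adjusted p = 0.0537). The Efemp1 call was lost without any 1 of 2 libraries (adjusted p up to 0.0857, without day 7 replicate 3). The Emilin2 call was lost without any 1 of 6 (up to 0.135, without day 7 replicate 3).

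Of 20 matricellular glycoproteins, which signal to cells from the matrix, 11 rose and 2 fell (median 0.62). Sparc, a collagen chaperone outside the cell, stood at 12242, 10606, 10147 and 11258 CPM at day 7 and 19644, 21364, 22397 and 21349.8 at day 14. The day 14 values lay close together and above all of day 7, and Sparc rose by 0.94 ± 0.11 (adjusted p = 9.17e-06). Tnc, tenascin C, an anti-adhesive glycoprotein of growing tissue, had 1543, 1863, 1584 and 1846 CPM and then 945, 1319, 1182 and 1188, and fell by 0.56 ± 0.13 (adjusted p = 0.00307). Its day 0 mean was 138 CPM, so it remained above day 0 (log2 difference 3.07, adjusted p = 5.18e-12). Postn, periostin, had 12062, 9094, 7173 and 9596 CPM at day 7 and 8513, 12096, 10261 and 5782 at day 14, fully overlapping, with a change of -0.05 ± 0.21 (adjusted p = 0.89). Fn1, fibronectin, rose by 0.61 ± 0.15 (adjusted p = 0.00485), Thbs3 by 1.001 ± 0.12 and Matn2 by 0.92 ± 0.12 (adjusted p = 1.47e-05 and 2.27e-05). Matn4, a matrilin, had the largest rise of the list, 4.09 ± 0.50 (adjusted p = 3.06e-05), and Tgfbi was the other member that fell (-0.80, adjusted p = 0.000208).

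The enzymes that modify and crosslink collagen showed smaller changes. Of 29 genes 12 rose and 2 fell (median 0.25), and 6 rose when only the libraries compared were fitted. Lox, the lysyl oxidase that starts crosslinks, had 2103, 2808, 2942 and 3495 CPM at day 7 and 2092, 2247, 1893 and 1904 at day 14. The lowest day 7 library lay within the day 14 range, and the fall of 0.48 ± 0.15 (adjusted p = 0.0227) was lost without day 7 replicates 3 or 4 (adjusted p = 0.0592 and 0.106) or day 14 replicates 3 or 4 (adjusted p = 0.0616 and 0.0522). The other gene that fell was the prolyl hydroxylase P4ha2 (-0.37, adjusted p = 0.0321). P3h4 and P3h3, of prolyl 3-hydroxylation, rose by 0.68 ± 0.11 and 0.49 ± 0.10 (adjusted p = 0.000207 and 0.00169). Bmp1, which trims procollagen ends, rose by 0.42 ± 0.09 (adjusted p = 0.00262) and the galactosyltransferase Colgalt2 by 1.45 ± 0.31 (adjusted p = 0.00182). Plod2, a lysyl hydroxylase, rose by 0.63 ± 0.21 (adjusted p = 0.0295), a call lost without day 7 replicate 3 or day 14 replicates 1 or 2 (adjusted p = 0.0963, 0.0738 and 0.111). The collagen chaperone Serpinh1 stood at 0.03 ± 0.11 (adjusted p = 0.89) and P4ha1 at 0.14 ± 0.09 (adjusted p = 0.288). The P4ha2 call was lost without any 1 of 5 libraries (adjusted p up to 0.107, without day 14 replicate 4).

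Proteases and their inhibitors changed in both directions. Of 27 genes 12 rose and 3 fell (median 0.23). Mmp9 (ENSMUSG00000017737, chr2:164940780-164955850, plus strand), gelatinase B, a protease of neutrophils, macrophages and osteoclasts, stood at 163, 314, 223 and 240.2 CPM at day 7 and at 11.1, 8.96, 19.8 and 51.01 at day 14. The highest day 14 value, in replicate 4, lay far below the lowest at day 7, and Mmp9 fell by 3.37 ± 0.80 (adjusted p = 0.00465). Mmp2, gelatinase A, of fibroblasts, had 1716, 1767, 1519 and 1785 and then 3355, 3732, 4519 and 2975 CPM, a rise of 1.10 ± 0.14 (adjusted p = 1.9e-05). Timp2, the inhibitor that also helps to activate pro-MMP2, had 1170.1, 1169, 1353 and 1504 and then 2694, 3103, 3492 and 3281 CPM, a rise of 1.27 ± 0.12 (adjusted p = 1.74e-06). Neither Mmp2 nor Timp2 overlapped between the days. Mmp14, the membrane protease of the same activation step, rose by 0.55 ± 0.12 (adjusted p = 0.00225). Timp3 rose by 0.74 ± 0.19 (adjusted p = 0.006), Ctsk, the collagen-cutting cathepsin K, by 0.85 ± 0.18 (adjusted p = 0.00168), and Adamts8 and Mmp11 by 1.95 ± 0.36 and 0.63 ± 0.17 (adjusted p = 0.00073 and 0.0074). The other members that fell were Mmp8 (-1.55, adjusted p = 0.0277), a neutrophil collagenase, and Adamts12 (-0.36, adjusted p = 0.0479). The Mmp8 call was lost without any 1 of 5 libraries (adjusted p up to 0.0823, without day 14 replicate 2). The Adamts12 call was also lost without any 1 of 5 (up to 0.238, without day 7 replicate 1).

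Of 23 genes of the TGF-beta, activin and myostatin pathway 5 rose and 2 fell (median 0.11), a share called equal to the 30.4% of all genes. Mstn (ENSMUSG00000026100, chr1:53061640-53068079, plus strand), myostatin, a ligand known as a brake on muscle growth that tendon also expresses, stood at 1.67, 0.898, 0.654 and 1.31 CPM at day 7 and 34.8, 17.4, 18.8 and 18.03 at day 14. Every day 14 library was over 10-fold above the highest at day 7, and Mstn rose by 4.28 ± 0.47 (adjusted p = 9.99e-06), to near its day 0 mean of 33.1 CPM (log2 difference -0.57, adjusted p = 0.234). Muscle fibres also express Mstn, and its change was 3.71 with the muscle score as covariate (adjusted p = 0.000279). Smad3, which carries the TGF-beta signal to the nucleus, rose by 0.62 ± 0.09 (adjusted p = 9.73e-05) and the ligand Tgfb2 by 0.58 ± 0.13 (adjusted p = 0.00191). The activin receptor Acvr2a fell by 0.49 ± 0.08 (adjusted p = 0.000103), as did the corepressor gene Tgif1 (-0.50, adjusted p = 0.00453). The other members that rose were Fstl3, which binds activin and myostatin (0.48, adjusted p = 0.021), and Ski, a repressor of Smad proteins (0.51, adjusted p = 0.00645). Tgfb1 stood at -0.04 ± 0.17 (adjusted p = 0.893) and Inhba at 0.75 ± 0.37 (adjusted p = 0.145). The Fstl3 call was lost without any 1 of 3 libraries (adjusted p up to 0.0602, without day 7 replicate 1).

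Of 22 genes of the BMP family and its antagonists 7 rose and 2 fell (median 0.35). Without day 14 replicate 4, 4 rose. Chrd, chordin, which traps BMPs, stood at 28.1, 23.5, 27.5 and 28.7 CPM and then 58.5, 75.0, 72.7 and 82.7, with no overlap. Its rise was 1.42 ± 0.11 (adjusted p = 2.54e-07). Chrdl1, a relative, rose by 1.14 ± 0.13 (adjusted p = 8.12e-06). The antagonist Bmper fell by 0.76 ± 0.15 (adjusted p = 0.000743), as did Grem1, gremlin (-1.20, adjusted p = 0.0396). Bmp4 stood at 0.32 ± 0.23 (adjusted p = 0.324). The Grem1 call was lost without any 1 of 6 libraries (adjusted p up to 0.11, without day 7 replicate 1).

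Of 26 Wnt ligands and modulators 11 rose and 3 fell, with a median of 0.80 beside 0.02 for all genes. Wnt10b, a ligand that opposes fat cell formation, stood at 1.46, 1.42, 2.09 and 1.84 CPM at day 7 and 7.67, 12.9, 9.22 and 3.802 at day 14, a rise of 2.31 ± 0.29 (adjusted p = 1.99e-05). Rspo2, which amplifies Wnt signals, had 9.05, 6.76, 6.10 and 5.13 and then 17.3, 38.4, 20.7 and 14.7 CPM, a rise of 1.75 ± 0.29 (adjusted p = 0.000217). Both were at low levels and did not overlap between the days. Dkk3 and Nkd2 rose by 1.43 ± 0.17 and 1.10 ± 0.13 (adjusted p = 1.24e-05 and 8.12e-06). The members that fell were Rspo3 (-1.34, adjusted p = 0.00126), the secreted inhibitor Sfrp1 (-1.10, adjusted p = 0.00108) and Wnt5a (-0.61, adjusted p = 0.019). The Wnt5a call was lost without day 7 replicate 2 or day 14 replicates 1 or 3 (adjusted p = 0.0589, 0.0632 and 0.0553), and without day 14 replicate 4 there were 5 members that fell.

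In the IGF pathway, 4 of 17 genes rose and 2 fell (median 0.22). The ligand Igf1 stood at 842, 628, 573 and 616 CPM at day 7 and 854, 919, 825 and 582 at day 14, overlapping, with a change of 0.26 ± 0.16 (adjusted p = 0.247). At day 14 it was higher than at day 0 (mean 248 CPM, log2 difference 1.68, adjusted p = 9.91e-08). The receptor gene Igf1r (ENSMUSG00000005533, chr7:67952827-68233668, plus strand) had 46.0, 50.5, 49.3 and 50.8 CPM and then 44.6, 40.5, 47.5 and 48.7, a change of -0.12 ± 0.08 (adjusted p = 0.302). Most of the members that changed bind IGF outside the cell or act on its binding proteins. Igfbp6, which prefers IGF2, had 161, 147, 193 and 214 and then 415, 451, 561 and 382 CPM, a rise of 1.34 ± 0.21 (adjusted p = 0.000104). Pappa2, a protease that frees IGF from its binding proteins, had 19.2, 74.8, 40.5 and 32.2 CPM at day 7 and 3.67, 2.78, 3.19 and 12.99 at day 14, and fell by 2.89 ± 0.59 (adjusted p = 0.00164). At day 14 it was also lower than at day 0 (mean 52.0 CPM, log2 difference -3.21, adjusted p = 0.00027). Stc2, stanniocalcin 2, an inhibitor of this class of proteases, had 3.997, 3.46, 3.54 and 3.25 and then 7.87, 9.70, 9.05 and 13.5 CPM, a rise of 1.49 ± 0.17 (adjusted p = 6.83e-06). Igfbp7 rose by 0.61 ± 0.13 (adjusted p = 0.00197) and Igfbp4 by 0.43 (adjusted p = 0.0219), while the clearing receptor Igf2r fell by 0.26 (adjusted p = 0.0369). Igf2 stood at 0.30 ± 0.48 (adjusted p = 0.684) and Igfbp5 at 0.41 ± 0.19 (adjusted p = 0.114). The Igfbp4 call was lost without any 1 of 2 libraries (adjusted p up to 0.0839, without day 14 replicate 4). The Igf2r call was lost without any 1 of 4 (up to 0.144, without day 7 replicate 1).

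Of 23 further growth factor genes 4 rose and 5 fell (median -0.05), and 3 fell without day 7 replicate 3. Pdgfa rose by 0.85 ± 0.12, Fgf18 by 1.51 ± 0.24 and Hbegf by 0.78 ± 0.16 (adjusted p = 3.26e-05, 0.00015 and 0.000981). The fourth that rose was Pdgfd (0.88, adjusted p = 0.00108). Nrg1, a ligand for Schwann cells and epithelia, fell by 2.34 ± 0.44 (adjusted p = 0.00067) and Hgf, which recruits muscle progenitors and epithelia, by 0.82 ± 0.16 (adjusted p = 0.00095). The other members that fell were Vegfd, of lymphatic vessels (-0.67, adjusted p = 0.0109), Fgf7, of epithelia (-0.63, adjusted p = 0.00329), and the receptor Pdgfra. Among 11 hyaluronan genes 2 rose and 2 fell (median -0.01). The synthase Has2 fell by 1.17 ± 0.30 (adjusted p = 0.00792) and Tmem2, a cell-surface hyaluronidase, by 0.58 ± 0.12 (adjusted p = 0.0012), while Has3 (0.90, adjusted p = 0.0272) and the hyaluronan-degrading Cemip (1.13, adjusted p = 0.0147) rose. The Cemip call was lost without day 14 replicate 2 (adjusted p = 0.0516). Of 17 integrins and collagen receptors 8 rose and 2 fell (median 0.26). The collagen-binding chains Itga10 and Itga11 rose by 1.94 ± 0.21 and 1.11 ± 0.16 (adjusted p = 6.49e-06 and 7.42e-05), and Itga4, the leukocyte chain, fell by 0.97 ± 0.13 (adjusted p = 2.25e-05), as did Itgav (-0.41, adjusted p = 0.00732). Of 12 genes listed for the mechanosensitive factor YAP, its targets and pathway members, 8 rose and none fell (median 0.35). With the muscle score as covariate 4 rose. Ankrd1, which muscle also makes, rose by 2.86 ± 0.62 (adjusted p = 0.00241; 0.52 and adjusted p = 0.265 with that covariate), and Wwtr1, which encodes the partner TAZ, by 0.66 ± 0.12 (adjusted p = 0.000462). The Vegfd call was lost without day 7 replicate 3 (adjusted p = 0.0507). The Has3 call was lost without any 1 of 4 libraries (up to 0.0817, without day 7 replicate 2).

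Cell division genes fell almost without exception. All 30 genes of mitosis and cytokinesis fell, with a median of -1.39 and a range of -1.78 to -0.94, and 33 of 35 genes of DNA replication and nucleotide synthesis fell (median -0.93). Mki67 (ENSMUSG00000031004, chr7:135689784-135716361, minus strand), a marker of cycling cells, stood at 224, 182, 178 and 141 CPM at day 7 and 55.1, 90.5, 25.6 and 63.9 at day 14. The highest day 14 library lay below the lowest of day 7, and Mki67 fell by 1.62 ± 0.29 (adjusted p = 0.000508). Cdk1 (ENSMUSG00000019942, chr10:69335146-69352938, minus strand), the kinase that starts mitosis, had 58.6, 53.2, 47.1 and 40.8 and then 20.5, 28.1, 11.8 and 23.5 CPM, a fall of 1.25 ± 0.22 (adjusted p = 0.00034). Plk1, a kinase of spindle assembly, had 19.2, 20.7, 26.4 and 18.6 and then 5.41, 9.01, 4.30 and 5.92 CPM, a fall of 1.78 ± 0.20 (adjusted p = 8.41e-06). Against day 0, all 30 mitosis genes were higher at day 14 (median log2 difference 2.36), and 26 of the replication genes were higher (median 0.77). In that comparison 28.0% of all genes were higher and 26.2% lower. Mki67 stood 2.29 above day 0 (mean 12.0 CPM, adjusted p = 6.11e-06). With the muscle score as covariate 29 mitosis and 30 replication genes fell.

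In replication, Mcm2, a subunit of the helicase loaded at origins, had 35.8, 45.9, 40.9 and 32.5 CPM at day 7 and 12.0, 16.0, 12.4 and 29.0 at day 14. Replicate 4 of day 14 came closest to day 7 without reaching it, and Mcm2 fell by 1.16 ± 0.24 (adjusted p = 0.00145). Mcm3 and Mcm4, further subunits, fell by 1.11 ± 0.16 and 1.01 ± 0.11 (adjusted p = 4.81e-05 and 6.9e-06). Rrm1 and Rrm2, the ribonucleotide reductase chains, fell by 0.97 ± 0.13 and 0.92 ± 0.15 (adjusted p = 3.61e-05 and 0.000177), and the sliding clamp gene Pcna by 0.60 ± 0.10 (adjusted p = 0.000262). Pola1, of the polymerase that primes replication, fell by 0.92 ± 0.13 (adjusted p = 5.97e-05). In mitosis, Cenpa, the centromere histone, fell by 1.22 ± 0.15, Mad2l1, of the spindle checkpoint, by 1.08 ± 0.17, Ccnb2, a mitotic cyclin, by 1.38 ± 0.21 and the kinase gene Melk by 1.67 ± 0.21 (adjusted p = 1.3e-05, 9.78e-05, 0.000117 and 1.71e-05).

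The promoters of these genes are shown because the members fell together and mitosis and S phase genes are known to carry different elements. Sequences are RefSeq windows on GRCm38.p6, the first listed for each symbol, from 250 bases before the start to 50 after, of which the 250 before are printed 5′ to 3′ on the gene's strand. Motifs were searched in the whole 300 bases, on both strands. In Cdk1 (chr10:69352913-69353162, minus strand), Ccnb2 (chr9:70421555-70421804, minus strand) and Mki67 (chr7:135716380-135716629, minus strand), capitals mark the cell cycle homology region TTTGAA and the CCAAT box, or their reverse complements. In Pola1 (chrX:93632156-93632405, minus strand) capitals mark the reverse complement of the E2F site TTTGGCGC.
Cdk1: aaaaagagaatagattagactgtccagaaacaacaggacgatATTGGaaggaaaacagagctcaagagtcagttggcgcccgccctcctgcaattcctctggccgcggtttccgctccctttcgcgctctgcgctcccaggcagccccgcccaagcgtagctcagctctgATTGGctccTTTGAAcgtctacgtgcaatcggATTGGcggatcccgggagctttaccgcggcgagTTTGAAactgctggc
Ccnb2: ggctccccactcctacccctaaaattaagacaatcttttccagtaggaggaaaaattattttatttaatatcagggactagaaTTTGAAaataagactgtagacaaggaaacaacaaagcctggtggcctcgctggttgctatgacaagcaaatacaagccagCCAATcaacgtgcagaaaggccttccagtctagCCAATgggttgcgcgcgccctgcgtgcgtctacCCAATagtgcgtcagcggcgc
Mki67: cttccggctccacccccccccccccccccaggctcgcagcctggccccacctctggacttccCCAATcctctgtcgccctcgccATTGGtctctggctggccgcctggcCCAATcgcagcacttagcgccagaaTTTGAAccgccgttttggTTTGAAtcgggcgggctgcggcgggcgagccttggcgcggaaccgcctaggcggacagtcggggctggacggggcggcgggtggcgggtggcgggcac
Pola1: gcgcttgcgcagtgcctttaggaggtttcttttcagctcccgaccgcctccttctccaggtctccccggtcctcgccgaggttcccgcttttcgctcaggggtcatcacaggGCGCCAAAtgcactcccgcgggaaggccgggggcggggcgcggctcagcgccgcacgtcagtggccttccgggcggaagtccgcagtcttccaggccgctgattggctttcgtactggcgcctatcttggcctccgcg
The printed Cdk1 sequence holds 2 matches to TTTGAA and 3 to CCAAT, Ccnb2 1 and 3, and Mki67 2 and 3, and none of these share bases. The whole Ccnb2 window holds 2 matches to TTTGAA, so another lies in the 50 bases not printed. Which of them acts as the cell cycle homology region was not tested. Of 30 mitosis genes 24 matched a window by symbol, and 17 of the 24 held TTTGAA, against 18.1% of 27025 promoters. CCAAT was in 19 of the 24, against 37.9% of all. It was also in 16 of 28 replication windows and 11 of 15 clock gene windows, so it was not particular to mitosis genes. Of 35 replication genes 28 matched, of which 4 held TTTGAA, 6 held TTTGGCGC (0.537% of all) and 5 held TTTCCCGC (1.11% of all). Neither E2F form was found in a mitosis window. A match is a run of letters and says nothing of binding.

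Of 20 D cyclins, CDK inhibitors and growth arrest genes 4 rose and 7 fell (median -0.08), and 4 fell without day 7 replicate 3 and 2 with the muscle covariate. Ccnd1, cyclin D1, which couples growth signals to the cycle, had 52.7, 60.7, 76.1 and 53.1 CPM at day 7 and 34.8, 44.3, 36.6 and 51.3 at day 14, a fall of 0.54 ± 0.15 (adjusted p = 0.00956) that was lost without day 7 replicate 3 (adjusted p = 0.0528). Rbl1 and Rb1, pocket proteins that hold E2F factors, fell by 1.15 ± 0.14 and 0.45 ± 0.09 (adjusted p = 1.01e-05 and 0.000935), and Gadd45a, a growth arrest gene, rose by 0.66 ± 0.14 (adjusted p = 0.00122). Cdkn2a, of the Ink4a and Arf inhibitors, and Ccnd2, cyclin D2, rose by 1.36 and 0.28 (adjusted p = 0.0114 and 0.0143). The inhibitor Cdkn1a stood at 0.20 ± 0.17 (adjusted p = 0.411). Among 16 imprinted and oncofetal genes 4 rose and 3 fell (median -0.09), with 2 that rose under the muscle covariate. Hmga2, a chromatin protein of embryonic growth, had 3.36, 7.52, 9.24 and 5.36 CPM and then 0.845, 0.611, 1.24 and 0.906, a fall of 2.83 ± 0.44 (adjusted p = 0.000123) to a level near day 0 (mean 0.680 CPM, log2 difference 0.34, adjusted p = 0.552). Igf2bp2 fell by 1.27 ± 0.16 (adjusted p = 1.9e-05). Meg3, a long noncoding RNA of the Dlk1 locus, had 428, 252, 320.5 and 360.4 and then 580.0, 865, 719.9 and 626 CPM, a rise of 1.04 ± 0.17 (adjusted p = 0.000198), and Cdkn1c, an imprinted cycle inhibitor, rose by 0.98 ± 0.21 (adjusted p = 0.00165). Rian and Mirg, noncoding RNAs of the same cluster as Meg3, rose by 0.48 and 1.13 (adjusted p = 0.0175 and 0.00145), and Peg3 fell (-0.60, adjusted p = 0.041). Without day 14 replicate 2 the calls of Cdkn2a, Ccnd2 and Rian were lost (adjusted p = 0.0722, 0.0628 and 0.0768). Any 1 of 2 libraries ended the Rian call when left out. Any 1 of 5 ended that of Peg3 (up to 0.222, without day 7 replicate 1).

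Most macrophage and monocyte genes fell. Of 26 macrophage and monocyte genes 20 fell and 1 rose, with a median of -0.92, and 12 fell with the muscle score as covariate. Their summed share of counts was 0.632% to 1.01% at day 7 and 0.450% to 0.510% at day 14. Cd68 (ENSMUSG00000018774, chr11:69664213-69666153, minus strand), a lysosomal protein of macrophages, had 231, 291, 309 and 325 CPM and then 128, 138, 176 and 163, a fall of 0.93 ± 0.12 (adjusted p = 2.33e-05). Adgre1, the F4/80 antigen, had 196, 199, 249 and 274 and then 122, 140.4, 131 and 137 CPM, a fall of 0.79 ± 0.13 (adjusted p = 0.000143). Ccr2, the receptor that brings monocytes from blood, had 119, 165, 246 and 159 and then 30.6, 56.3, 46.0 and 44.2 CPM, a fall of 1.96 ± 0.23 (adjusted p = 1.65e-05). None of these overlapped between the days. Mrc1, the mannose receptor of resident and repair macrophages, had 394, 575, 848 and 698 and then 334, 328, 248 and 340.0 CPM, a fall of 1.01 ± 0.24 (adjusted p = 0.00377). Cd68 and Adgre1 stayed above day 0 (1.41 and 1.01, adjusted p = 2.33e-08 and 2.04e-06), while Ccr2 and Mrc1 stood at -0.36 and 0.25 against it (adjusted p = 0.198 and 0.382). Arg1, the arginase of repair macrophages, had 8.20, 21.6, 8.20 and 18.1 CPM and then 0.845, 0.539, 1.01 and 0.176, the largest fall among the genes that passed, had at least 5 CPM and did not overlap between days, 4.45 ± 0.73 (adjusted p = 0.000288). The member that rose was Retnla, another repair marker, at 3.40 (adjusted p = 0.00917). The Retnla call was lost without day 14 replicate 2 (adjusted p = 0.0526).

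Of 8 neutrophil genes 5 fell and none rose (median -1.598). The count was 3 without day 7 replicates 2 or 3 or day 14 replicates 2 or 4, each left out alone, and 2 with the muscle score as covariate. Csf3r, the receptor of the granulocyte growth factor, had 48.3, 64.3, 91.0 and 81.4 CPM and then 13.9, 18.1, 20.6 and 17.4, a fall of 2.03 ± 0.20 (adjusted p = 2.82e-06). Cxcr2 fell by 2.24 ± 0.43 (adjusted p = 0.000797) and S100a8 by 1.65 ± 0.45 (adjusted p = 0.0105), with its partner S100a9 at -1.65 (adjusted p = 0.0232) and Mmp8 the fifth. Of 33 cytokines and chemokines 16 fell and none rose (median -1.004). Il1b (ENSMUSG00000027398, chr2:129364570-129371139, minus strand), an early inflammatory cytokine, had 30.3, 40.8, 48.2 and 30.9 and then 6.999, 6.28, 5.61 and 5.82 CPM, a fall of 2.602 ± 0.61 (adjusted p = 0.00453). Il6 had 7.03, 23.4, 9.14 and 17.6 and then 3.91, 2.53, 1.95 and 2.54 CPM, a fall of 2.38 ± 0.59 (adjusted p = 0.00585), and the monocyte attractant Ccl2 had 39.6, 86.3, 92.6 and 71.9 and then 25.9, 21.6, 18.5 and 8.36 CPM, a fall of 1.96 ± 0.45 (adjusted p = 0.0039). In all 3, every day 14 library lay below every day 7 library. Osm and Lif, cytokines of the same receptor family as Il6, fell by 1.88 ± 0.34 and 1.24 ± 0.26 (adjusted p = 0.000404 and 0.00166). With the muscle score as covariate 1 of these cytokine genes was called, and without day 14 replicates 1 and 4 the count was 12. The S100a9 call was lost without any 1 of 4 libraries (adjusted p up to 0.0666, without day 7 replicate 3).

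Of 13 MHC class II and dendritic cell genes 9 fell (median -0.83), and 4 with the muscle score as covariate. H2-Aa, a class II chain, had 297, 338, 339 and 316 CPM and then 130.4, 172, 179 and 223, a fall of 0.87 ± 0.16 (adjusted p = 0.000575), and Ciita, the class II master regulator, and Flt3, of dendritic cells, fell by 1.22 ± 0.22 and 1.29 ± 0.18 (adjusted p = 0.000361 and 5.3e-05). Lymphocyte genes were close to the detection limit: Cd3e, the T cell receptor subunit, averaged 0.194 CPM at day 7 and 0.285 at day 14 (adjusted p = 0.534), and Cd79a, of B cells, 0.317 and 0.238 (adjusted p = 0.577). Of 18 T and NK cell genes 1 fell, Cd4, which macrophages can also carry. Cd4 had 19.9, 23.9, 27.2 and 32.2 CPM and then 4.51, 4.49, 6.23 and 19.1, a fall of 1.59 ± 0.44 (adjusted p = 0.0118). Of 9 B and plasma cell genes Cd79b fell (-0.99, adjusted p = 0.00587) and Ebf1, also a factor of fibroblast and fat progenitors, rose (0.39, adjusted p = 0.0142). Of 10 mast cell genes 4 fell (median -0.85), with the protease Cpa3 at -1.51 ± 0.37 (adjusted p = 0.00465), the histamine enzyme Hdc at -1.13 (adjusted p = 0.00251) and the proteases Cma1 and Mcpt4 at -1.02 and -0.97 (adjusted p = 0.0119 and 0.0371), and 1 fell without day 14 replicates 1 and 4 and 1 with the muscle score as covariate. The Mcpt4 call was lost without any 1 of 7 libraries (adjusted p up to 0.12, without day 7 replicate 3).

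Interferon-stimulated genes fell in 8 of 14 cases (median -1.21). The count was 4 without day 7 replicate 2 or day 14 replicates 2 or 3, 3 without day 7 replicate 4 or day 14 replicate 1, and 1 with the muscle score as covariate or without day 14 replicates 1 and 4. Oas2, a sensor of double-stranded RNA, had 36.1, 61.1, 70.8 and 79.8 CPM at day 7 and 13.1, 22.2, 19.4 and 22.5 at day 14, a fall of 1.68 ± 0.34 (adjusted p = 0.00126). Mx1, an antiviral GTPase, had 14.6, 22.0, 11.5 and 36.3 and then 2.17, 3.74, 4.87 and 8.69 CPM, a fall of 2.12 ± 0.63 (adjusted p = 0.0176) lost without day 7 replicate 4 or day 14 replicate 1 (adjusted p = 0.0615 and 0.0516). Isg15, a ubiquitin-like protein, had 9.25, 17.5, 8.08 and 16.8 and then 6.15, 4.02, 5.64 and 4.43 CPM, with no overlap but a wide day 7 spread, and its change of -1.35 ± 0.61 did not pass (adjusted p = 0.108). The factor gene Irf7 had 38.8, 86.5, 51.7 and 121 and then 13.2, 18.9, 28.4 and 30.6 CPM, a fall of 1.71 ± 0.63 at the edge of the threshold (adjusted p = 0.049), lost in 7 of the 8 fits that left out 1 of these libraries, with adjusted p up to 0.142 without day 7 replicate 4. Oas3, Ifi213 and Ms4a4c were among the 10 genes with the largest falls (-2.55 ± 0.68, -2.66 ± 0.79 and -2.55 ± 0.70, adjusted p = 0.0102, 0.0177 and 0.012), and the Ifi213 call was lost without day 14 replicate 1 (adjusted p = 0.051). Ptprn, of secretory granules, and the cytochrome P450 gene Cyp2s1 were also among the 10 largest falls (-2.89 ± 0.33 and -2.72 ± 0.59, adjusted p = 8.85e-06 and 0.00241), and the Cyp2s1 call was lost with the muscle score as covariate (adjusted p = 0.058). The promoter of Oas1a (-1.48 ± 0.36, adjusted p = 0.00529) is shown for its interferon-stimulated response element. These are the 250 bases before the start (chr5:120907526-120907775, minus strand, GRCm38.p6, RefSeq), with the 2 overlapping matches in capitals. The motif searched was GAAA followed, after any 2 bases, by another GAAA.
Oas1a: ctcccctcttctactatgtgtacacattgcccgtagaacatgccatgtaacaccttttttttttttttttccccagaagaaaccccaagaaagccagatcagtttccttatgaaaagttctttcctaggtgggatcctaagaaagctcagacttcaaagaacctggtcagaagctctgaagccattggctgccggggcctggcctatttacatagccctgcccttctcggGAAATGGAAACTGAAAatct
Of 14 interferon-stimulated genes 10 matched a promoter window, and 6 of the 10 held this element on either strand, against 3.49% of 27025.

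Muscle genes made up much of the largest rises, and the muscle share of the libraries given above moved with them. Of 30 muscle fibre genes 26 rose and none fell (median 3.15). The count was 5 without day 14 replicates 1 and 4, and with the muscle score as covariate 4 rose and 7 fell. The score is the mean of these same genes, so values with the covariate cannot test their change. Fibre types did not move in step. Myh2 (ENSMUSG00000033196, chr11:67171027-67197517, plus strand), the myosin of type 2A fibres, had 32.9, 10.2, 1.52 and 5.78 CPM at day 7 and 608, 225, 351 and 1391 at day 14, a rise of 5.67 ± 1.05 (adjusted p = 0.000798), beside a day 0 mean of 620.0. Myh4, the myosin of the fastest fibres, had 172, 153, 16.5 and 171 and then 215, 31.4, 39.3 and 258 CPM, a change of 0.09 ± 0.85 (adjusted p = 0.955), against a day 0 mean of 13068 CPM (log2 difference -6.59, adjusted p = 8.59e-05). Myl2, the slow and cardiac light chain, had 0.130, 0.136, 0.194 and 0.209 and then 13.8, 11.2, 9.37 and 15.9 CPM, the largest rise among the named genes at 6.23 ± 0.97 (adjusted p = 0.000222; 4.64 and adjusted p = 0.00821 with the covariate). Acta1, skeletal actin, had 491, 336, 71.5 and 425 and then 3429, 662, 1158 and 6249 CPM, a rise of 3.12 ± 0.83 (adjusted p = 0.00983). Pvalb, a calcium buffer of fast fibres, and Mb, myoglobin, rose by 5.51 ± 0.88 and 4.76 ± 0.83 (adjusted p = 0.000273 and 0.000494). The summed share of the list was 6.63% of counts on average at day 0, and 18 members were lower at day 14 than at day 0. Slc38a3, Tmem52, Tigd4 and Ankrd2, also among the 10 largest rises, stood at 4.62 ± 0.74, 4.57 ± 0.75, 4.45 ± 0.61 and 4.39 ± 0.85 (adjusted p = 0.000272, 0.000291, 7.67e-05 and 0.00111). Like Acta1, all 4 were highest in day 14 replicates 1 and 4, and Ankrd2, a stretch-responsive muscle protein, stood at 2.29 with the covariate (adjusted p = 0.0887).

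Of 16 genes of fusing and immature muscle 3 fell and none rose (median -0.62), against 14.3% of all genes that fell, and 15 fell with the muscle score as covariate. Mymk, myomaker, which fuses myoblasts, had 14.6, 10.6, 9.47 and 12.8 CPM and then 4.13, 0.952, 2.003 and 4.15, a fall of 2.09 ± 0.63 (adjusted p = 0.0194), lost without day 14 replicates 2 or 3 (adjusted p = 0.0524 and 0.0565). Its partner Mymx fell by 2.03 ± 0.47 (adjusted p = 0.00302). Chrng, the fetal acetylcholine receptor subunit, had 7.03, 4.46, 5.21 and 7.07 and then 1.496, 0.305, 1.19 and 2.32 CPM, a fall of 2.18 ± 0.61 (adjusted p = 0.0122). Myh3, the embryonic myosin, stood at -0.09 ± 0.77 (adjusted p = 0.947) and Myog, myogenin, at -0.93 ± 0.65 (adjusted p = 0.308), both above day 0 (4.14 and 3.33, adjusted p = 0.000969 and 0.00166).

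Cartilage and mineral genes rose in part. Of 16 chondrocyte genes 7 rose and none fell (median 0.90), with 2 rising under the muscle covariate. Acan, aggrecan, had 259, 206, 172 and 177 CPM and then 274, 458, 478 and 728, a rise of 1.25 ± 0.37 (adjusted p = 0.0156) lost without day 14 replicate 4 (adjusted p = 0.0582). Its day 0 mean was 8.83 CPM. Sox9, the cartilage transcription factor, had 27.5, 26.6, 24.1 and 19.9 and then 31.6, 29.2, 38.3 and 50.001 CPM, which did not overlap, with a change of 0.60 ± 0.30 that did not pass (adjusted p = 0.146). Comp, cartilage oligomeric matrix protein, also of tendon, rose by 0.85 ± 0.21 and Ucma by 2.49 ± 0.57 (adjusted p = 0.0048 and 0.00307). Of 13 bone and mineral genes 7 rose and 1 fell (median 0.86). Mgp, matrix Gla protein, an inhibitor of calcification, had 311, 293, 263 and 308 and then 1283, 719, 1009 and 903 CPM, a rise of 1.74 ± 0.17 (adjusted p = 1.79e-06). Ank, which exports pyrophosphate, another inhibitor, rose by 0.86 ± 0.12 (adjusted p = 3.34e-05). Ibsp, bone sialoprotein, had 4.23, 2.74, 3.43 and 5.70 and then 56.1, 84.3, 163 and 7.07 CPM, a rise of 4.27 ± 0.85 (adjusted p = 0.00135) in which replicate 4 of day 14 stayed near day 7. The member that fell was Acp5, the osteoclast and macrophage phosphatase (-1.36, adjusted p = 0.0415). Runx2 stood at -0.51 ± 0.22 and Alpl at -0.09 ± 0.60 (adjusted p = 0.0878 and 0.931). The Acp5 call was lost whichever of the 8 libraries was left out (adjusted p up to 0.0969, without day 14 replicate 1).

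Fibroblast states shifted in part. Of 20 genes of progenitor and paratenon fibroblasts 13 rose and 1, the receptor Pdgfra, fell (-0.39, adjusted p = 0.0234), with a median of 0.63. Clec3b, tetranectin, had 67.4, 49.5, 72.3 and 82.7 CPM and then 250.2, 272, 322 and 147, a rise of 1.87 ± 0.29 (adjusted p = 0.000158). Sema3c and Cd55 rose by 1.28 ± 0.19 and 1.05 ± 0.12 (adjusted p = 9.24e-05 and 8.12e-06). Of 19 activated fibroblast genes 7 rose and 3 fell (median 0.37), the latter Grem1, Tnc and Adam12 (-0.54, adjusted p = 0.0223). Cthrc1, a secreted collagen repeat protein, had 637, 543, 435 and 551 CPM and then 1010.3, 1243, 861 and 591, a rise of 0.77 ± 0.18 (adjusted p = 0.0026), above a day 0 mean of 3.14. Fap rose by 1.09 ± 0.15, C1qtnf3 by 1.51 ± 0.29 and Col8a1 by 1.10 ± 0.20 (adjusted p = 4.85e-05, 0.000872 and 0.000534), while Lrrc15 stood at 0.41 ± 0.19 (adjusted p = 0.106) and passed without day 14 replicate 1 or 4 (adjusted p = 0.0258 and 0.0464). The Pdgfra call was lost without any 1 of 3 libraries (adjusted p up to 0.104, without day 7 replicate 4). The Adam12 call was lost without any 1 of 4 (up to 0.0687, without day 14 replicate 4).

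Vessel, nerve, fat, skin and blood markers served as a check on the makeup of the samples. Of 20 endothelial genes 3 rose (15%, against 16.0% of all genes), with a median of 0.28. They were the transcription factors Erg at 0.64 ± 0.14 (adjusted p = 0.0021) and Sox17 at 0.78 (adjusted p = 0.0103) and the secreted Egfl7 at 0.48 (adjusted p = 0.0124). The count was 8 without day 7 replicate 1 and 6 without day 14 replicate 1. Pecam1 stood at 0.31 ± 0.12 (adjusted p = 0.0525). Of 16 pericyte and smooth muscle genes 7 rose and 1, Cnn1, fell (-1.31, adjusted p = 0.0118), with Rgs5, of pericytes, at 1.14 ± 0.20 (adjusted p = 0.000384). This count was 4 without day 7 replicates 2 or 4 or day 14 replicate 4, and 3 with the muscle covariate or without day 14 replicates 1 and 4. Of 17 Schwann cell and nerve genes 2 rose and 3 fell (median 0.17). S100b was among those that rose, and Erbb3, the neuregulin receptor (-0.75, adjusted p = 0.01), Cnp (-0.44, adjusted p = 0.0133) and Egr2 fell. Of 16 adipocyte genes 1 rose, Car3, which muscle shares (2.19 ± 0.55, adjusted p = 0.00645; 0.35 and adjusted p = 0.781 with the muscle covariate). Of 14 keratinocyte genes Trp63 rose (1.58 ± 0.57, adjusted p = 0.0438), with its sign reversed under the muscle covariate (-0.31). Krt14, a skin keratin, averaged 0.854 CPM at day 7 and 0.280 at day 14 (adjusted p = 0.663), and the list's median was 1.11 in control and -2.72 in KO. Of 7 red cell genes 4 rose (median 1.62), among them Slc4a1, the anion exchanger (2.36, adjusted p = 0.0194), and Hbb-bt (1.69, adjusted p = 0.0425). Hbb-bs, a beta globin, had 75.9, 85.6, 83.4 and 64.1 CPM and then 488, 186, 128 and 129, and its rise of 1.59 ± 0.57 (adjusted p = 0.0459) was lost without any of 6 single libraries (adjusted p = 0.215 without day 14 replicate 1). None of the red cell genes was called without that library or without day 7 replicate 4, 1 or 2 were called without day 7 replicates 1, 2 or 3 or day 14 replicate 2, and 6 without day 14 replicate 3. Further calls were lost when single libraries were left out, given by number with the highest adjusted p. The number was 2 for Cnp (0.0726 without day 7 replicate 3) and Slc4a1 (0.133 without day 14 replicate 1). It was 6 for Trp63 (0.139 without day 14 replicate 4) and Hbb-bt (0.197 without day 14 replicate 1).

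Genes of ribosomes, secretion and the stress response had medians near that of all genes. Of 78 cytosolic ribosomal protein genes 3 fell and none rose (median -0.03), Rpl18, Rps9 and Rpsa at -0.27, -0.26 and -0.24 (adjusted p = 0.0475, 0.0392 and 0.0429), with 11 called without day 14 replicate 1 and none without any 1 of 6 other libraries. Of 38 ribosome biogenesis genes 6 fell (15.8%, against 14.3% of all genes), with a median of -0.12. Npm1 stood at -0.45 ± 0.11 and Ncl at -0.36 ± 0.10 (adjusted p = 0.00421 and 0.0123). Without day 7 replicate 2 the count was 2 and the Ncl call was lost (adjusted p = 0.0675). With the muscle covariate 1 of them fell. Myc stood at -0.17 ± 0.23 (adjusted p = 0.623). Of 39 genes of the secretory pathway 4 rose and 9 fell (median -0.09), with the folding enzyme gene Pdia6 at -0.50 ± 0.11 and the translocon gene Sec61a1 at -0.31 ± 0.08 (adjusted p = 0.00194 and 0.00688). The count that fell was 5 without day 7 replicates 2 or 3 or day 14 replicate 4, each left out alone, 1 with the muscle covariate and 2 without day 14 replicates 1 and 4. The members that rose were Sar1a, Creb3l2, Dnajb9 and Sec62, at 0.20, 0.33, 0.34 and 0.36 (adjusted p = 0.0359, 0.0145, 0.0114 and 0.000896), and 2 rose without day 14 replicate 3. Serpinh1 and P4ha1, given above, belong to the same work of folding collagen and did not pass. The integrated stress response list had 25 genes, of which 8 rose and 4 fell (median -0.02), and 2 fell without day 7 replicate 2 or without day 7 replicate 3, and 1 with the muscle covariate. Nupr1, a stress-induced nuclear protein, had 66.5, 53.4, 53.7 and 70.3 CPM and then 299, 184, 227 and 91.1, a rise of 1.72 ± 0.25 (adjusted p = 7.64e-05), and Atf4 and Ddit3 rose by 0.44 ± 0.11 and 0.59 ± 0.12 (adjusted p = 0.00389 and 0.00115). Psat1, of serine synthesis, which Atf4 drives in many cells, fell by 1.06 ± 0.14 (adjusted p = 3.07e-05), with Phgdh of the same route at -0.40 (adjusted p = 0.0301). The cystine carrier chains Slc7a11 and Slc3a2 fell too (-1.14 and -0.33, adjusted p = 0.00594 and 0.0478). Some of these calls were lost when single libraries were left out, given by number with the highest adjusted p. The number was 6 for Rpl18 (0.173 without day 7 replicate 2) and Rps9 (0.127 without day 7 replicate 3). It was also 6 for Rpsa (0.134 without day 7 replicate 2). It was 5 for Phgdh (0.104 without day 14 replicate 3) and Slc3a2 (0.163 without day 14 replicate 2). It was 4 for Sar1a (0.119 without day 14 replicate 2) and 1 for Creb3l2 (0.058 without day 14 replicate 3).

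Of 66 nuclear genes of oxidative phosphorylation 9 rose (13.6%, against 16.0% of all genes) and none fell (median 0.09). The count that rose was 5 without day 14 replicate 1 or without day 7 replicate 3, 2 with the muscle covariate and 4 without day 14 replicates 1 and 4. Those that rose included the muscle isoforms Cox6a2 (3.41 ± 0.69, adjusted p = 0.00152) and Cox8b (3.06 ± 0.60, adjusted p = 0.00125). Of 7 mitochondrially encoded mRNAs 5 rose (median 0.54), 3 without day 7 replicates 3 or 4 or day 14 replicate 1, and none with the muscle covariate and 2 without day 14 replicates 1 and 4. They were mt-Nd1, mt-Nd2, mt-Nd4, mt-Nd6 and mt-Cytb. mt-Nd1, a complex I subunit, had 2254, 2036, 1794 and 1805 CPM and then 3521, 2554, 2416 and 2816, a rise of 0.52 ± 0.16 (adjusted p = 0.0223). Replicates 1 and 4 of day 14, with the most muscle RNA, were its highest, and the call was lost without the first of them (adjusted p = 0.0763) or without day 7 replicates 3 or 4 (adjusted p = 0.0618 and 0.058). Of 25 glycolysis and hypoxia genes 3 rose and 2 fell (median -0.13), with Eno1 at -0.55 ± 0.16 (adjusted p = 0.0113), Pfkl at -0.34 (adjusted p = 0.0473) and Ndrg1 at 0.38 (adjusted p = 0.00812). The muscle forms Pgam2 and Pfkm rose by 2.02 and 1.58 (adjusted p = 0.0308 and 0.0318) and reversed under the muscle covariate (-0.84 and -0.59). Of 21 cholesterol synthesis genes 7 fell and none rose (median -0.46), with Mvk at -0.55 ± 0.11 and Lss at -0.75 ± 0.18 (adjusted p = 0.00101 and 0.00407), and the count was 4 without day 7 replicates 3 or 4, 1 with the muscle covariate and 3 without day 14 replicates 1 and 4. Of 20 FoxO-responsive genes, which insulin and IGF signals hold down, 7 rose and 4 fell (median 0.34), with 3 that rose under the muscle covariate and 4 without day 14 replicates 1 and 4. Klf9 and Pik3ip1 rose by 0.93 ± 0.19 and 1.07 ± 0.21 and the apoptosis gene Bcl2l11 fell by 0.63 ± 0.12 (adjusted p = 0.00113, 0.0011 and 0.000682). The other falls were Sod2, Sesn1 and Cited2 (-0.57, -0.40 and -0.34, adjusted p = 0.0281, 0.019 and 0.0482). The 4 falls numbered 1 without day 14 replicate 3 and 2 without any 1 of 5 other libraries. Several calls were lost when single libraries were left out, given by number with the highest adjusted p. The number was 6 for Pfkl (0.197 without day 7 replicate 2) and Cited2 (0.151 without day 14 replicate 1). It was 5 for Pfkm (0.138 without day 14 replicate 4) and Sod2 (0.106 without day 7 replicate 2). It was 4 for Pgam2 (0.114 without day 14 replicate 4) and 3 for Sesn1 (0.0896 without day 7 replicate 3).

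Clock genes rose in 9 of 18 cases and none fell (median 0.67). The count was 5 without day 7 replicate 2 or day 14 replicate 3 and 3 with the muscle covariate. Per2, a repressor of the clock, had 17.2, 15.3, 14.1 and 19.8 CPM at day 7 and 35.7, 23.2, 54.4 and 92.7 at day 14, a rise of 1.63 ± 0.32 (adjusted p = 0.000984). Arntl, the activator that peaks at the opposite phase, had 39.99, 48.9, 34.9 and 46.5 and then 80.2, 87.6, 43.3 and 12.6 CPM, with replicate 4 below all others and replicates 1 and 2 the highest, and a change of 0.39 ± 0.42 (adjusted p = 0.522). Replicate 4 was thus the highest of the day 14 libraries for Per2 and the lowest for Arntl. The labels used here give no hour of collection. Hlf and Cry1 rose by 2.14 ± 0.42 and 0.997 ± 0.21 (adjusted p = 0.00108 and 0.00145). Of 18 clock genes 15 matched a promoter window, and 5 of these held the E-box CACGTG, against 7.24% of all. Of 23 immediate early genes 5 rose and 3 fell (median -0.10). Klf4 had 49.9, 63.9, 84.5 and 77.9 and then 173, 118, 166 and 146 CPM, a rise of 1.13 ± 0.19 (adjusted p = 0.000253), and Jund, Klf2 and Nr4a3 rose by 1.04 ± 0.15, 1.16 ± 0.23 and 2.10 ± 0.44 (adjusted p = 6.11e-05, 0.00123 and 0.00197). The fifth that rose was Nr4a2 (0.80, adjusted p = 0.0136), and Fosl1, Btg2 and Egr2 fell (-1.22, -0.73 and -1.03, adjusted p = 0.0105, 0.0226 and 0.0383). Fos and Egr1 stood at -0.52 ± 0.76 and -0.96 ± 0.60 (adjusted p = 0.651 and 0.25). The Btg2 call was lost without any 1 of 4 libraries (adjusted p up to 0.0917, without day 7 replicate 3).

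Day 14 was also set against day 0, a comparison that shares the day 14 libraries and in which tamoxifen, stimulus and time differ together. In it 5306 genes were higher (28.0%) and 4962 lower (26.2%). Tenocyte genes lay on both sides, with 4 higher and 7 lower of 16. Of the proteoglycans 9 were higher and 8 lower, of the macrophage genes 15 higher and 3 lower, and of the cytokines 19 higher and 3 lower.

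The same interval in KO mice asks whether the second week differs when Igf1r is targeted in Scx-expressing cells. KO mice also differ from control mice by CreERT2 itself, carried at both Scx alleles and activated by tamoxifen. Effects of CreERT2 and of the targeting of Igf1r cannot be told apart here. There 1341 genes rose (7.09%) and 1621 fell (8.57%) between the days, 2962 in all, with 1693 called without KO day 14 replicate 1 and 1885 without KO day 7 replicate 2. Of the genes called in control, 39.0% were called the same way in KO, and of those called in KO, 75.7% were called the same way in control. Among the control calls, the median ratio of the KO to the control log2 fold change was 0.592. Choosing genes by their control call favours large control changes, so neither this ratio nor the 39.0% compares the genotypes. Across genes, which are not independent replicates, the changes in both genotypes had a Pearson r of 0.57. The difference itself, tested as an interaction of genotype and day, passed for 0 of 18918 genes (0%) in edgeR (smallest adjusted p = 0.129), with 2039 genes at an unadjusted p below 0.05. By DESeq2 190 genes passed and by limma-voom 0, and without WT day 7 replicate 1 edgeR called 11. In 3 genes, named here after their values were known, the calls had opposite signs. S100b, a calcium binding protein of Schwann cells and chondrocytes, stood at 0.79 in control and -0.80 in KO, the receptor chain gene Il6st at -0.28 and 0.35, and Relch at -0.17 and 0.19, with adjusted p for the interaction of 0.129 for S100b and Il6st and 0.170 for Relch.

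Lists kept their direction in KO for the main themes, with different sizes that were not tested as lists. Mitosis genes had a median of -0.77 in KO and 16 of 30 fell, and replication genes -0.70 with 30 of 35. Tenocyte genes had a median of 0.67 with 8 that rose, proteoglycans 0.62 with 12, fibrillar collagens 0.29 with 1 and muscle fibre genes 0.72 with 2. Macrophage genes had -0.58 with 15 that fell, cytokines -1.06 with 17 and interferon-stimulated genes -1.44 with 8. Mast cell genes stood at 0.24, with none called. The KO changes started from other day 7 levels. Fibrillar collagens took 13.2% to 15.1% of counts in the KO day 7 libraries, against at most 10.2% in control. Muscle fibre genes took 0.709% to 1.65% there, against at most 0.344%. At day 14 the fibrillar share was 15.5% to 17.3% in KO and 9.07% to 16.2% in control. The muscle share was then 0.229% to 3.15% in KO and 0.420% to 2.77% in control. Differences in level between genotypes were not tested. For single genes, Tnmd changed by 1.96 in KO (adjusted p = 0.000276), Mmp9 by -4.99 (adjusted p = 0.00165), Mki67 by -0.83 (adjusted p = 0.0587), Mstn by 1.51 (adjusted p = 0.0207), Col2a1 by 0.39 (adjusted p = 0.791) and Chrd by 0.62 (adjusted p = 0.000791).

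**Figure D4:**
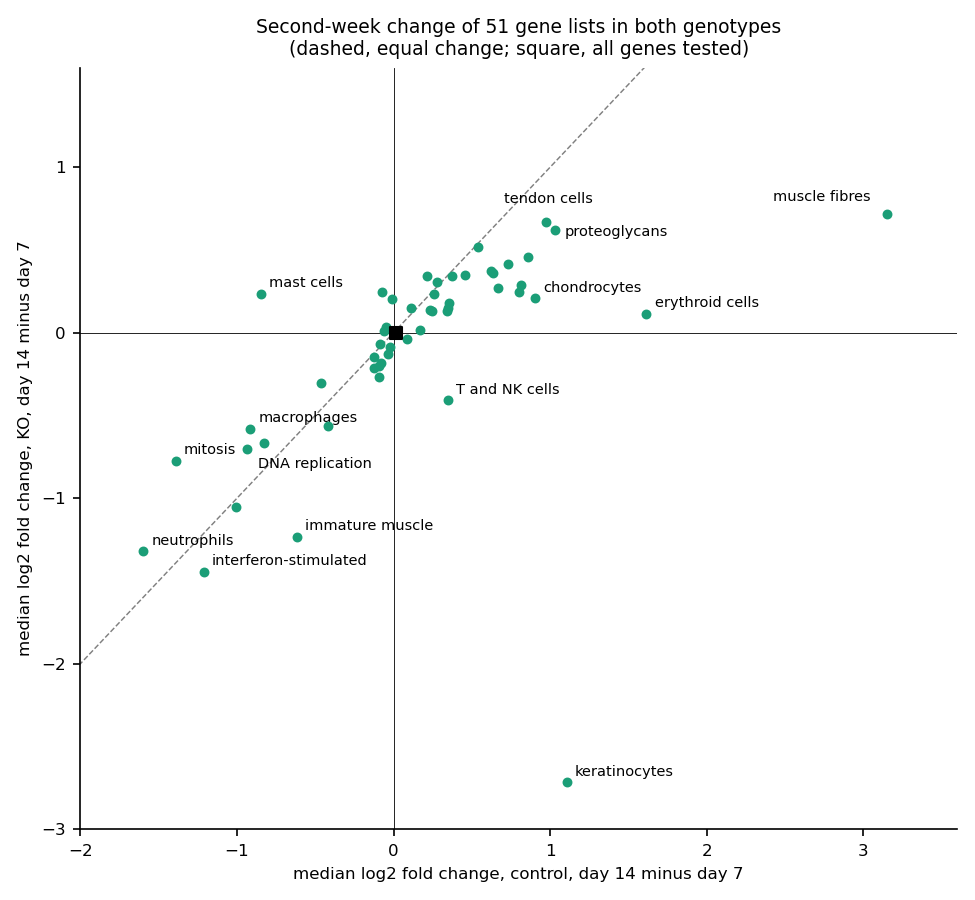
Median log2 fold change from day 7 to day 14 of 51 gene lists in control (horizontal) and KO (vertical), 1 point per list, with some named. The dashed line marks equal change and the square all genes tested. Mitosis, replication, macrophage and interferon lists are negative in both genotypes, and muscle fibres stand at 3.15 in control against 0.72 in KO.

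The authors' deposited table held 13266 genes, of which 13263 were tested here. The day 14 minus day 7 difference derived from it matched the fit within 0.1 on the log2 scale for 100% of them. A column of the authors' deposited table headed as KO day 14 against WT day 7 equals, to rounding, the difference between its KO effects at both days, and its smallest false discovery rate was 0.0963.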

How the data were processed

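RNA came from plantaris tendons (miRNeasy Micro Kit with DNase I, 250 ng, Illumina library preparation, per the labels' protocols). The deposited raw counts per gene were used. The submitters' processing notes name FastQC, STAR, edgeR and mm10; versions, annotation, counting tool and strand setting are not named there, so overlapping, antisense and near-identical genes are uncertain. The authors' deposited table gives log2 fold changes with p-values and false discovery rates from edgeR; it was used for 1 check. Groups came from the labels.

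Of 24885 genes, 18918 passed edgeR's filter on low counts (filterByExpr). Counts were scaled by TMM and tested with edgeR 4.0.16 (R 4.3.3; robust quasi-likelihood F test, all 20 libraries in 5 groups, Benjamini-Hochberg adjusted p below 0.05, 2-sided). On simulated counts for 18469 genes, 165 of 200 changed genes were recovered, with 8 false calls. The simulation took its spread from the fit itself, changed far fewer genes than were called here and had no muscle difference. It therefore checks the code and not the calls in these data. SE is the absolute log2 fold change over the square root of F. Replicate numbers did not pair the libraries. Gene positions and exon lengths are from GENCODE (GRCm38) and promoters from RefSeq (GRCm38.p6).

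Genes named were taken from the 10 largest rises and falls among called genes with at least 5 CPM and no overlap, marked list members and up to 4 further called members per list. The lists and the rule were chosen with earlier results of these data known. Alternatives were DESeq2 1.42.0, limma 3.58.1 with voom, other scalings and filters, a replicate block, only the groups compared, a muscle score covariate and single libraries left out.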

Additional observations from a re-analysis of the deposited data

Results flagged for a closer look

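In 11 of 160 groups of 4 values tested, 1 library stood apart by Dixon's criterion, where chance gives about 1 in 20 groups. Tnmd in WT day 7 replicate 1 had 370.0 CPM, against 152 to 179.7 in the other 3 libraries. Col2a1 had 4.62 CPM in the same library, against 1.34 to 1.48. Col3a1 in WT day 7 replicate 4 had 37368 CPM, against 34211 to 34485. Myh4 in WT day 7 replicate 3 had 16.5 CPM, against 153 to 172. At day 14, replicate 4 was high for the muscle-tendon junction collagen Col22a1 (124 CPM, against 21.5 to 31.6), the protease Pappa2 (12.99, against 2.78 to 3.67) and Cd4 (19.1, against 4.49 to 6.23). Replicate 1 of day 14 was high for Mstn (34.8 CPM, against 17.4 to 18.8) and Hbb-bs (488, against 128 to 186), and its red cell genes took 0.0979% of counts, against 0.0236% to 0.0350%. Replicate 3 of day 14 was low for Mrc1 (248 CPM, against 328 to 340.0).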

How the results depend on the processing

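The count of 5745 genes changed between WT day 7 and WT day 14 was 5762 with RLE scaling, 5698 with upper-quartile scaling, 5395 with no filter, 5643 with a filter of 1 CPM in 4 libraries, 6289 by DESeq2, 5567 by limma-voom, 4299 with only the groups compared and 4237 without day 14 replicates 1 and 4. With the muscle score as covariate it was 2970, with 1181 genes changed at least 2-fold against 1834. Leaving out 1 library gave 4521 to 5912 genes for WT day 14 against day 7, 1502 to 2007 at least 2-fold, 9207 to 10594 for day 14 against day 0, 1693 to 2956 for KO and 0 to 11 for the interaction, for which DESeq2 called 190. The mean muscle share was higher at day 14 by 1.20 percentage points (0.748 without WT day 14 replicate 4, at most 1.53). The mean share of fibrillar collagens was higher by 3.09 (1.94 without the same replicate, at most 4.33), but the libraries overlapped between the days, so this rise is less certain. The mean mitosis and macrophage shares changed by -0.0952 (-0.107 to -0.0864) and -0.392 (-0.470 to -0.344). The muscle, mitosis and macrophage shares did not overlap between the days. Under the muscle covariate the direction reversed for Acta1 (-0.34) and Myh4 (-3.57), which are part of the score and cannot be tested by it. It also reversed there for Trp63 (-0.31), Ppargc1a (-0.13), Cox7a1 (-0.081), mt-Nd6 (-0.0013), Pgam2 (-0.84) and Pfkm (-0.59), and the cause was not tested. Of 350 genes looked at, 107 lost their call and 6 gained one there, 68 lost it without day 14 replicates 1 and 4, and 18 to 41 without 1 library. With the replicate number as a block 5879 genes were called; same-numbered libraries correlated by -0.052 to 0.152 in their deviations, so the numbers gave no pairing. Limits are the 4 libraries per day, unstated animals and hours, and a muscle share that differs between the days.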
